A study of Mus musculus with 6 samples.

Results

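The genes described here encode enzymes that build O-linked glycans, sialylated glycan ends and glycosaminoglycans. They were taken by symbol, under a rule set with earlier results of these data known. The rule took the rows of the deposited table that belong to the Galnt, Galntl, B3gnt, B3galt, B4galt, Gcnt, St3gal, St6galnac, St8sia, Chst, Ndst, Hs3st and Hs6st families. It also took *Ext1*, *Ext2*, *Extl1*, *Extl2*, *Extl3*, *Hs2st1*, *Chsy1* and *Chpf*. This gave 77 of the 17428 genes in the table. RNA was sequenced from EpH4, a mouse mammary epithelial cell line that is not derived from a tumour, at 3 stages with 2 libraries each: untreated E cells, M cells after 7 days of TGFβ1, which drives epithelial cells towards a mesenchymal state (epithelial-mesenchymal transition, EMT), and RE cells, cultured for another 4 days after the TGFβ1 was removed. All 6 libraries came from the same line, which limits the model to 1 genetic background and to cells in culture. The values are coverage, the number of sequenced bases that fell on a gene, given here as ppm of the library after normalization. A gene was tested where at least 2 libraries held 500 bases or more, and 61 of the 77 genes passed this filter. It was called where its log2 fold change exceeded 1 in either direction and its adjusted p was below 0.01. A positive fold change means higher in the second-named stage.

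O-glycans of the mucin type begin when a polypeptide GalNAc-transferase of the Galnt family links a sugar to serine or threonine, and galactosyl- and N-acetylglucosaminyltransferases then extend and branch the chain. Sialyltransferases cap such chains, and those of glycolipids, with sialic acid, which carries a negative charge. Glycosaminoglycans are long chains on proteoglycans: a shared linker is followed by heparan sulfate, made by the Ext enzymes and sulfated by the Ndst and Hs families, or by chondroitin and dermatan sulfate, made by *Chsy1* and its partners and sulfated by several Chst enzymes. These sugars coat mammary epithelial cells and take part in binding of growth factors and of the extracellular matrix.

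The promoters below are shown for *Chst2*, which had the highest log2 fold change in E vs. M, for *Hs3st1* and *Galntl2* (now named *Galnt15*), which had the lowest, and for *B3gnt3*, the one gene called lower in M cells whose window holds an E-box. Each window covers 250 bases before to 50 after the RefSeq start on GRCm38.p6, written 5′ to 3′ along the gene. The reads had been mapped to another build, so that these coordinates belong to the RefSeq windows only. Capitals mark the letters CAGGTG or CACCTG (the E-box that Snail and Zeb factors bind) and CAGACA or TGTCTG (a Smad binding element), searched on both strands.
Chst2 promoter, chr9:95407221-95407520, minus strand: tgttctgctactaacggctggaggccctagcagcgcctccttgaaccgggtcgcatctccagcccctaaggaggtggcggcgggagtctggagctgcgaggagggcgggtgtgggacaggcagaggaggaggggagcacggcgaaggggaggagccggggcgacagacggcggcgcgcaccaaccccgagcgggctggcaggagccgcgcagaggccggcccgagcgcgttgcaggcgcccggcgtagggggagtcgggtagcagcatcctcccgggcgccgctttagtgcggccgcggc
Hs3st1 promoter, chr5:39644582-39644881, minus strand: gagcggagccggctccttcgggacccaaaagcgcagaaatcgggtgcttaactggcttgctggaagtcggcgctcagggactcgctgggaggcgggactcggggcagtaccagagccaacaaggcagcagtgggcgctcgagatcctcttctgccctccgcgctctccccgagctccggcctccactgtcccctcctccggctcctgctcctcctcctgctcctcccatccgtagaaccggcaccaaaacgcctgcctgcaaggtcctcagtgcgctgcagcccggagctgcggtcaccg
Galntl2 promoter, chr14:32028853-32029152, plus strand: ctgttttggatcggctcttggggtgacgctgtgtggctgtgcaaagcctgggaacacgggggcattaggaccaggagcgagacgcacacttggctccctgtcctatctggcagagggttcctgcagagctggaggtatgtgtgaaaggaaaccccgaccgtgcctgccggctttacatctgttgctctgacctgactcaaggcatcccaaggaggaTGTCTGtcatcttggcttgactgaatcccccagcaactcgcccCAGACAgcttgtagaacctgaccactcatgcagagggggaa
B3gnt3 promoter, chr8:71701751-71702050, minus strand: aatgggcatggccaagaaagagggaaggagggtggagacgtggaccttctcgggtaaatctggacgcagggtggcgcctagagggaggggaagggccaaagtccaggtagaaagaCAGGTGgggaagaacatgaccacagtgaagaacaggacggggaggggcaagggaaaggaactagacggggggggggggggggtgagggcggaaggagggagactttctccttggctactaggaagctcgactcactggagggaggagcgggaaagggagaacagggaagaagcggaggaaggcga
The *Galntl2* window held 2 Smad elements, and those of *Chst2* and *Hs3st1* held neither motif. RefSeq windows were matched for 48 of the 61 genes tested and for 20 of the 24 called in any comparison. Among the windows of genes called higher in M than in E cells, 1 of 15 held the E-box and 1 of 15 the Smad element. These windows are not 1 per gene: *Gcnt2* has 3 and *Ndst3* has 2, while *Ext1* has none. Among the windows of genes called lower, each motif was found in 1 of 7. Over all 32851 windows, 20.2% held the E-box and 21% the Smad element. A match describes letters in the window only.

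The comparison of E with M cells asks which genes moved under TGFβ1. In M cells, 23 of the 61 genes tested were called (37.7%), 15 higher and 8 lower. The largest changes were in *Chst2*, *Chst8* and *Chst11*, which rose, and in *Hs3st1* and *Galntl2*, which fell. Of all 13893 genes tested, 16.7% were called, 8.14% higher and 8.53% lower. The median log2 fold change was 0.18 over the 61 genes and −0.02 over all genes tested. In bulk RNA, fewer cells that express a gene and less RNA per cell cannot be told apart.

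M vs. RE asks what changed after TGFβ1 was removed. Here 10 of the 61 genes were called (16.4%), 4 higher and 6 lower in RE cells, with *Galntl2* and *Hs3st1* at the top of those that rose and *Chst2* at the top of those that fell. Over all genes tested, 12.7% were called, 8.08% higher and 4.61% lower. The median was −0.10 over the 61 genes and −0.01 over all genes.

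E vs. RE asks how far the cells came back to where they started. There were 10 calls among the 61 genes (16.4%), 6 higher in RE cells (*Chst11*, *Chst8*, *Galntl2*, *St6galnac6*, *Ext1* and *Chsy1*) and 4 lower (*B3gnt7*, *B4galt4*, *Galnt12* and *B3gnt3*). Over all genes tested, 9.07% were called, 5.92% higher and 3.15% lower. The median was 0.27 over the 61 genes and −0.002 over all genes. Each stage serves in 2 of the 3 comparisons, so that the comparisons share libraries.

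Scaling by library totals alone, without TMM factors, moved the median of all genes to −0.29 in E vs. M and to 0.18 in M vs. RE. The calls then split into 9 higher and 10 lower in E vs. M (47.4% higher, against 65.2%) and into 5 higher and 2 lower in M vs. RE (71.4% higher, against 40%). Removal of the trend on transcript length and GC content turned the split in E vs. RE to 4 higher and 5 lower (44.4% higher, against 60%). The counts also depended on the number of libraries in the fit. Leaving out any 1 of the M and RE libraries lowered the counts in every comparison, among these genes and over all genes tested alike. Leaving out either E library left the counts equal or raised them, again in both sets. The cause was not tested. No call turned its direction under any alternative, and 13 of the 43 calls held under every alternative that gave them a value. Among these 13 are *Chst11* and *Chst8* in E vs. M. Both genes were dropped, and so had no value, where the minimum coverage was required in every library.

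**Figure D1:**
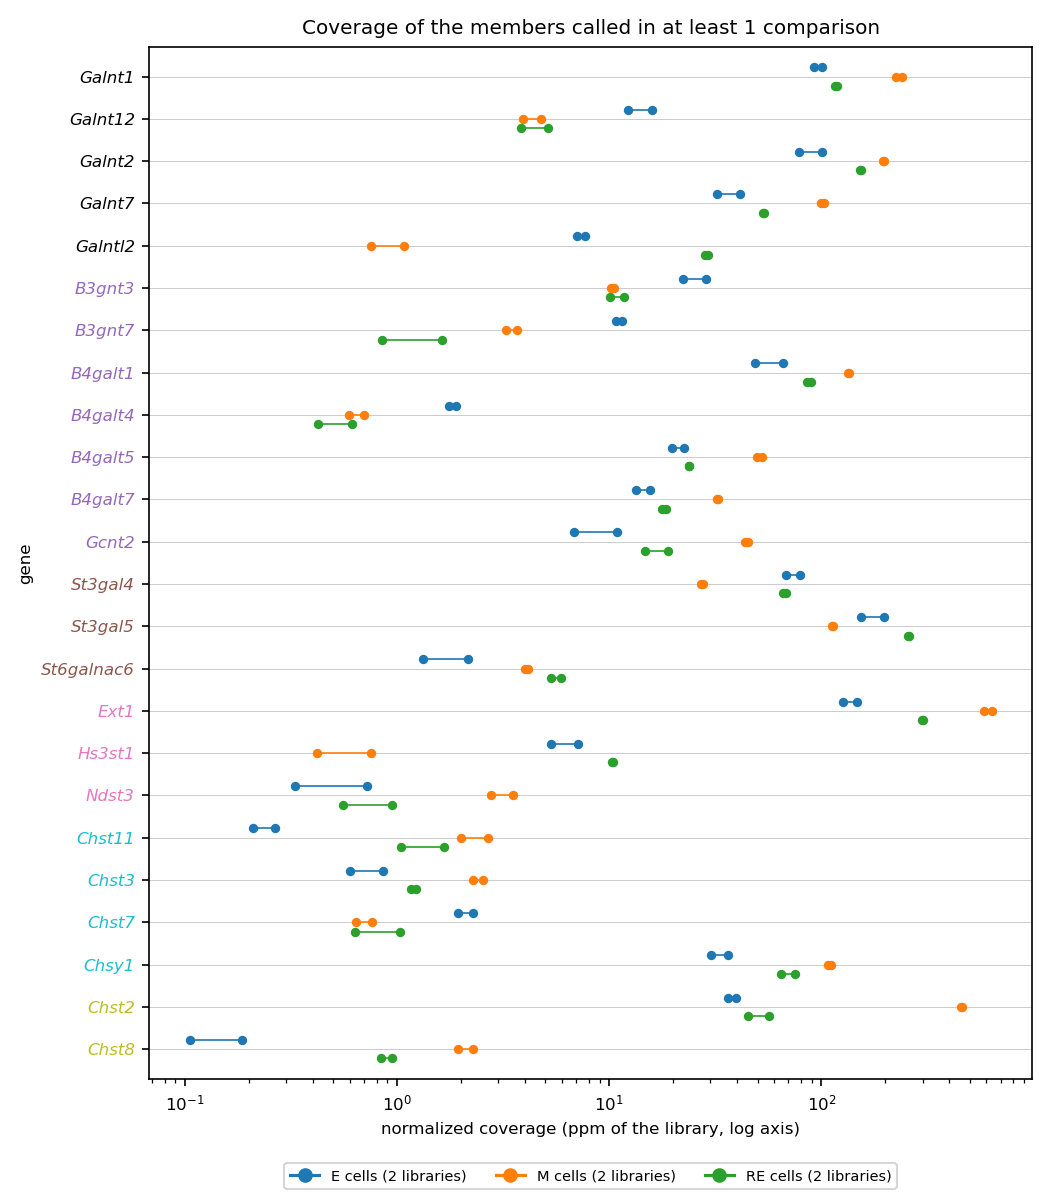
Normalized coverage in ppm (log axis) of the 24 genes called in at least 1 comparison, with 1 point per library and a line joining the 2 libraries of a stage, and gene names coloured by role. The M libraries of Chst2 (455 and 461 ppm) lie to the right of the E and RE libraries, and those of Galntl2 (0.756 and 1.08 ppm) and Hs3st1 (0.42 and 0.752 ppm) to the left.

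**Figure D2:**
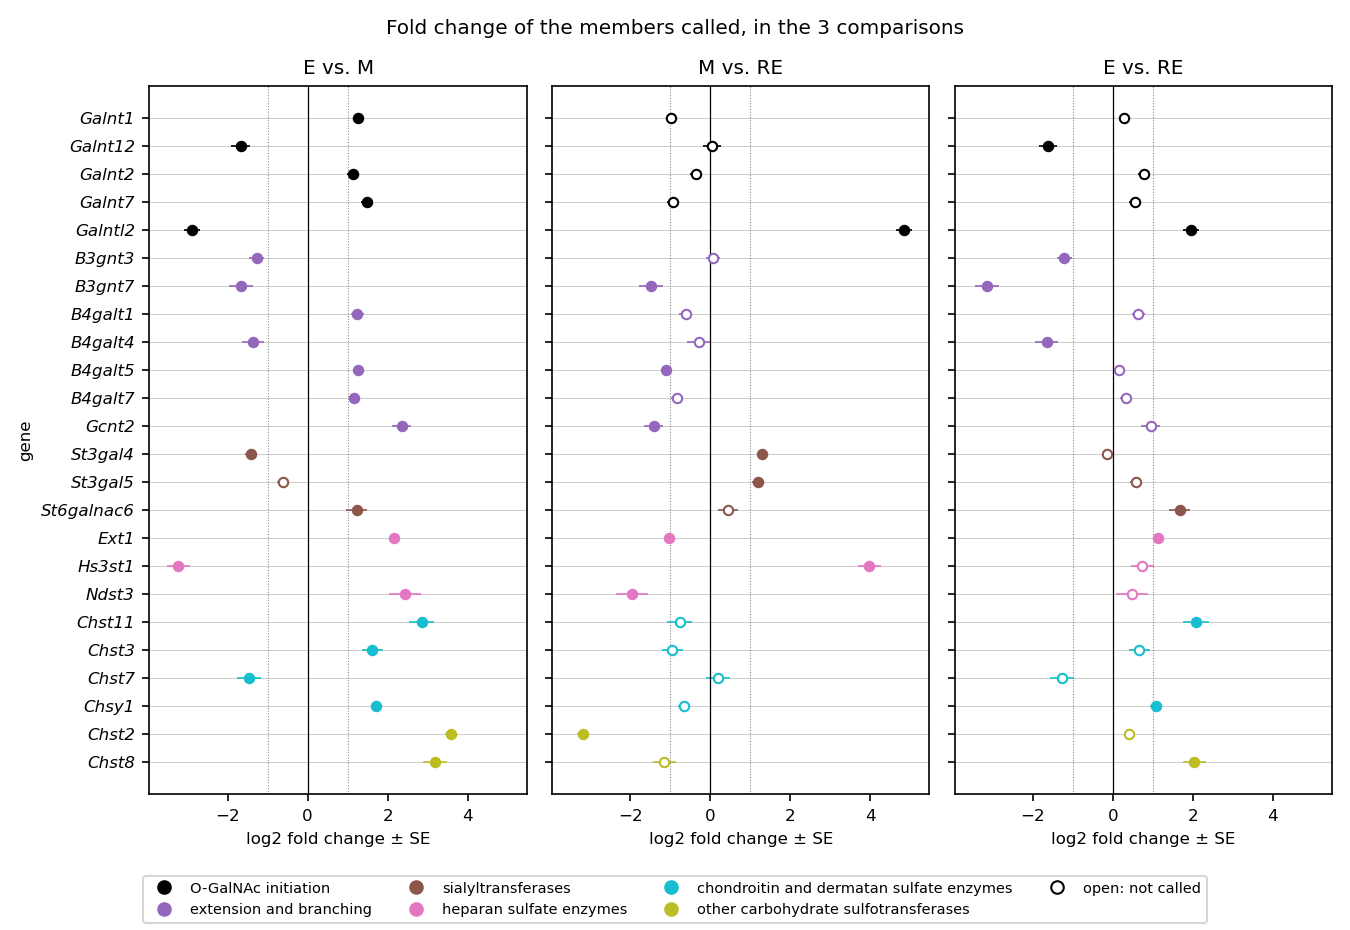
Log2 fold change with its SE for the same 24 genes in E vs. M, M vs. RE and E vs. RE, coloured by role. Filled points were called, open points were not, and dotted lines stand at 1 and −1, with Chst2 at 3.59 in E vs. M and −3.17 in M vs. RE.

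The Galnt and Galntl genes were grouped by symbol under initiation, although not every one of them initiates chains. Of the 13 in the table, 8 were tested and 5 were called in E vs. M (62.5%, against 16.7% of all genes tested), 3 higher and 2 lower in M cells. *Galntl2* changed most in this family. Its coverage was 7.67 and 7.04 ppm in the E libraries, 0.756 and 1.08 ppm in the M libraries and 29.2 and 28.2 ppm in the RE libraries. The M libraries were the lowest and the RE libraries the highest, with no overlap between any stages. On the log2 scale the changes were −2.89 ± 0.21 (SE, adjusted p = 9.1e-05) in E vs. M, 4.84 ± 0.21 (SE, adjusted p = 1.71e-05) in M vs. RE and 1.95 ± 0.21 (SE, adjusted p = 0.00124) in E vs. RE. RE cells therefore held 3.9 times the mean coverage of E cells. *Galnt12*, an initiating enzyme, had 15.9 and 12.3 ppm in the E libraries, 4.76 and 3.91 ppm in the M libraries and 3.85 and 5.17 ppm in the RE libraries. Both E libraries stood above the others, while the M and RE libraries overlapped. Its fold change on the log2 scale was −1.67 ± 0.23 (SE, adjusted p = 0.00144) in E vs. M, 0.05 ± 0.23 (SE, adjusted p = 0.899) in M vs. RE and −1.63 ± 0.23 (SE, adjusted p = 0.00325) in E vs. RE.

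*Galnt1* and *Galnt2*, broadly expressed initiating enzymes, and *Galnt7*, which acts on peptides that already carry a GalNAc, were called higher in M cells. *Galnt1* stood at 101 and 92.8 ppm in the E libraries, 241 and 224 ppm in the M libraries and 118 and 116 ppm in the RE libraries. Both M libraries were above the rest, and the stages did not overlap. The changes in log2 units were 1.26 ± 0.12 (SE, adjusted p = 0.000292) in E vs. M, −0.99 ± 0.12 (SE, adjusted p = 0.00107) in M vs. RE and 0.27 ± 0.12 (SE, adjusted p = 0.125) in E vs. RE, and the second of these fell just short of the fold threshold. For *Galnt2* the coverage was 78.4 and 101 ppm in the E libraries, 197 and 195 ppm in the M libraries and 153 and 152 ppm in the RE libraries. M was highest, RE intermediate and E lowest, without overlap. The log2 fold changes of *Galnt2* were 1.14 ± 0.15 (SE, adjusted p = 0.0011) in E vs. M, −0.36 ± 0.15 (SE, adjusted p = 0.105) in M vs. RE and 0.78 ± 0.15 (SE, adjusted p = 0.00859) in E vs. RE. In the annotation used here, 93.7% of the 50-base stretches of *Galnt2* also occur in *Gm20388* or an antisense gene, so that its coverage may be shared. *Galnt7* gave 32.1 and 41.3 ppm in the E libraries, 103 and 99.6 ppm in the M libraries and 53.7 and 53.1 ppm in the RE libraries, again without overlap. The fit gave log2 fold changes of 1.47 ± 0.15 (SE, adjusted p = 0.000394) in E vs. M, −0.92 ± 0.15 (SE, adjusted p = 0.0038) in M vs. RE and 0.55 ± 0.15 (SE, adjusted p = 0.0313) in E vs. RE.

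The other 3 genes tested in this group, *Galnt3*, *Galnt10* and *Galnt11*, were not called. Their stage means lay between 44.2 and 126 ppm and their log2 fold changes between −0.60 and 0.82, and 2 of the 3 had an adjusted p below 0.01 in some comparison without reaching the fold threshold. *Galnt5*, *Galnt6*, *Galntl1*, *Galntl4* and *Galntl5* did not pass the filter and reached 0.395 ppm at most. The calls of *Galntl2* in E vs. M and M vs. RE and of *Galnt7* held under every alternative. *Galnt1* fell below the fold threshold with library totals (0.98), as did *Galnt2* (0.86), which also lost its call without the first E library (0.95) and, by its adjusted p (up to 0.0171), without the first or the second M library. *Galnt12* lost its call in E vs. M without the first or the second M library (up to 0.0194) and in E vs. RE when any 1 of the M and RE libraries was left out or with only the 2 groups compared (up to 0.0477), and *Galntl2* lost that in E vs. RE without the first or the second RE library (up to 0.0279).

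Among the enzymes of extension and branching, 22 of 23 were tested. In E vs. M, 4 were called higher (*B4galt1*, *B4galt5*, *B4galt7* and *Gcnt2*) and 3 lower (*B3gnt3*, *B3gnt7* and *B4galt4*). These made up 31.8% of those tested, against 16.7% of all genes tested. In M vs. RE 3 were called (13.6%, against 12.7% of all genes tested), all lower in RE cells. In E vs. RE 3 were called (13.6%, against 9.07%), likewise all lower in RE cells. *Gcnt2*, the branching enzyme of the I blood group antigen, had 6.85 and 10.9 ppm in the E libraries, 45.3 and 43.8 ppm in the M libraries and 14.7 and 19 ppm in the RE libraries. M was highest, and RE lay above E without overlap. The log2 fold change of *Gcnt2* was 2.35 ± 0.24 (SE, adjusted p = 0.00039) in E vs. M, −1.41 ± 0.24 (SE, adjusted p = 0.00453) in M vs. RE and 0.94 ± 0.24 (SE, adjusted p = 0.0247) in E vs. RE. The annotated exons of *Gcnt2* overlap the antisense genes *A730081D07Rik* over 6.84% and *Gm31683* over 4.18% of their length. Whether the counting used strand is not given in the sources used here.

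*B4galt1*, the main galactosyltransferase of N-acetyllactosamine and the catalytic part of lactose synthase in the mammary gland, measured 48.6 and 65.7 ppm in the E libraries, 135 and 133 ppm in the M libraries and 89.5 and 85.9 ppm in the RE libraries. The M libraries were highest and the E libraries lowest. Fitted log2 fold changes were 1.24 ± 0.16 (SE, adjusted p = 0.00112) in E vs. M, −0.61 ± 0.16 (SE, adjusted p = 0.0262) in M vs. RE and 0.63 ± 0.16 (SE, adjusted p = 0.0251) in E vs. RE. *B4galt5*, which makes lactosylceramide, measured 19.8 and 22.4 ppm in the E libraries, 49.5 and 52.5 ppm in the M libraries and 23.7 and 23.7 ppm in the RE libraries. The M libraries exceeded the other 4, and RE lay slightly above E. *B4galt5* had log2 fold changes of 1.27 ± 0.13 (SE, adjusted p = 0.000455) in E vs. M, −1.10 ± 0.13 (SE, adjusted p = 0.00105) in M vs. RE and 0.17 ± 0.13 (SE, adjusted p = 0.377) in E vs. RE. *B4galt7* adds a galactose to the linker of glycosaminoglycans and gave 15.5 and 13.3 ppm in the E libraries, 32.6 and 32.1 ppm in the M libraries and 17.7 and 18.6 ppm in the RE libraries. The order was again M, RE, E without overlap, with log2 fold changes of 1.17 ± 0.14 (SE, adjusted p = 0.000917) in E vs. M, −0.83 ± 0.14 (SE, adjusted p = 0.00502) in M vs. RE and 0.34 ± 0.14 (SE, adjusted p = 0.119) in E vs. RE.

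The enzymes of this group that fell in M cells were also called lower in RE than in E cells. *B3gnt7*, which elongates keratan sulfate, had 11.5 and 10.8 ppm in the E libraries, 3.25 and 3.69 ppm in the M libraries and 0.845 and 1.63 ppm in the RE libraries. Coverage was highest in E and lowest in RE cells, with no overlap, and *B3gnt7* was called in all 3 comparisons. An antisense gene overlaps 12.6% of its annotated exons. On the log2 scale the changes were −1.66 ± 0.30 (SE, adjusted p = 0.0045) in E vs. M, −1.48 ± 0.30 (SE, adjusted p = 0.00931) in M vs. RE and −3.14 ± 0.30 (SE, adjusted p = 0.000871) in E vs. RE. *B3gnt3*, which extends O-glycan cores, had 22.2 and 28.6 ppm in the E libraries, 10.2 and 10.5 ppm in the M libraries and 10.1 and 11.7 ppm in the RE libraries, so that the E libraries were highest and M and RE overlapped. The changes in log2 units were −1.27 ± 0.18 (SE, adjusted p = 0.00154) in E vs. M, 0.07 ± 0.18 (SE, adjusted p = 0.807) in M vs. RE and −1.21 ± 0.18 (SE, adjusted p = 0.0037) in E vs. RE. *B4galt4*, a galactosyltransferase of sulfated and lipid-linked chains, was low throughout, at 1.89 and 1.76 ppm in the E libraries, 0.701 and 0.594 ppm in the M libraries and 0.61 and 0.424 ppm in the RE libraries. E was highest, and M and RE overlapped. The log2 fold changes of *B4galt4* were −1.37 ± 0.28 (SE, adjusted p = 0.00759) in E vs. M, −0.29 ± 0.28 (SE, adjusted p = 0.477) in M vs. RE and −1.66 ± 0.28 (SE, adjusted p = 0.00593) in E vs. RE.

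The 15 enzymes of this group that were tested and not called had stage means from 0.0589 to 92 ppm and log2 fold changes from −1.58 to 1.01, and 1 of them had an adjusted p below 0.01. *B3galt1* did not pass the filter and reached 0.0484 ppm. The symbol *B3gnt1* has been used for 2 different genes, and no function is given to it here. *Gcnt2* kept its call in E vs. M under every alternative, and its call in M vs. RE was lost when any 1 of the M and RE libraries was left out (adjusted p up to 0.0585). Library totals took *B4galt1*, *B4galt5* and *B4galt7* below the fold threshold in E vs. M (0.97, 0.99 and 0.89), and *B4galt1* and *B4galt7* also lost the call without the first or the second M library (up to 0.0164 and 0.0162), *B4galt5* without the second (0.0108). *B4galt5* lost that in M vs. RE when any 1 of the M and RE libraries was left out (up to 0.022) and with library totals (−0.91). *B3gnt7* lost its call in M vs. RE under 7 of 18 alternatives: without the first or the second M library or the first RE library (up to 0.069), with library totals, with 0.025 ppm added, without a filter and with 500 bases required in every library. It lost that in E vs. M without the first or the second M library (up to 0.0421) and with array weights, and in E vs. RE without the first RE library (0.0134). The calls of *B3gnt3* were lost without the first or the second M library, and in E vs. RE also without the first or the second RE library (up to 0.0593) and with only the 2 groups compared. Those of *B4galt4* were lost under 9 of 18 alternatives in E vs. M and under 8 in E vs. RE: when any 1 of the M and RE libraries was left out (up to 0.0655), with 1 ppm added (−0.78 and −0.90), without a filter, with only the 2 groups compared and with array weights, and in E vs. M also with 0.025 ppm added.

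Of the 15 sialyltransferases in the table, 9 were tested. *St3gal4*, which caps galactose ends and takes part in sialyl Lewis x, fell in M cells and rose in RE cells. It had 79.6 and 68 ppm in the E libraries, 27.1 and 27.6 ppm in the M libraries and 66.2 and 67.8 ppm in the RE libraries. Both M libraries were lowest, and RE lay just below E without overlap. The fit gave log2 fold changes of −1.43 ± 0.13 (SE, adjusted p = 0.000254) in E vs. M, 1.29 ± 0.13 (SE, adjusted p = 0.000459) in M vs. RE and −0.14 ± 0.13 (SE, adjusted p = 0.465) in E vs. RE. An annotated gene on the other strand covers 14.1% of the exons of *St3gal4*.

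*St3gal5*, the synthase of the ganglioside GM3, was called only in M vs. RE of the 3 comparisons. Its coverage was 198 and 153 ppm in the E libraries, 112 and 114 ppm in the M libraries and 260 and 256 ppm in the RE libraries. RE was highest, M lowest and E between, without overlap. Fitted log2 fold changes were −0.62 ± 0.15 (SE, adjusted p = 0.0147) in E vs. M, 1.19 ± 0.15 (SE, adjusted p = 0.00121) in M vs. RE and 0.57 ± 0.15 (SE, adjusted p = 0.0278) in E vs. RE. *St6galnac6*, which adds sialic acid to glycolipids and to branched termini, had 2.16 and 1.32 ppm in the E libraries, 4.15 and 4.02 ppm in the M libraries and 5.32 and 5.89 ppm in the RE libraries. The E libraries were lowest and the RE libraries highest. The fit gave log2 fold changes of 1.22 ± 0.26 (SE, adjusted p = 0.00883) in E vs. M, 0.45 ± 0.26 (SE, adjusted p = 0.235) in M vs. RE and 1.67 ± 0.26 (SE, adjusted p = 0.00446) in E vs. RE.

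*St3gal1*, *St3gal2*, *St3gal3*, *St3gal6*, *St6galnac2* and *St8sia4* were tested and not called, with stage means from 0.0966 to 70.2 ppm and log2 fold changes from −1.10 to 1.21, and 2 of these 6 had an adjusted p below 0.01. *St6galnac1*, *St6galnac4*, *St6galnac5*, *St8sia1*, *St8sia2* and *St8sia6* did not pass the filter and reached 0.138 ppm at most. The call of *St3gal4* in E vs. M held under every alternative. In M vs. RE, *St3gal4* and *St3gal5* lost their calls when any 1 of the M and RE libraries was left out (adjusted p up to 0.0116 and 0.022). The call of *St6galnac6* in E vs. M was lost under 11 of 18 alternatives, with each of the second E library, the M libraries and the RE libraries left out among them (adjusted p up to 0.0617), and with library totals (0.96), 1 ppm added (0.91), no filter, only the 2 groups compared, the replicate block and array weights. Its call in E vs. RE was lost when any 1 of the M and RE libraries was left out (up to 0.0491) or with only the 2 groups compared.

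Heparan sulfate enzymes numbered 15, of which 13 were tested. In E vs. M, *Ext1* and *Ndst3* were called higher and *Hs3st1* lower in M cells. These were 23.1% of those tested, against 16.7% of all genes tested. *Ext1* encodes a chain polymerase that works as a complex with the *Ext2* product. It had 126 and 148 ppm in the E libraries, 637 and 584 ppm in the M libraries and 303 and 297 ppm in the RE libraries. The stages did not overlap, with M highest and E lowest. The log2 fold change of *Ext1* was 2.16 ± 0.14 (SE, adjusted p = 5.28e-05) in E vs. M, −1.02 ± 0.14 (SE, adjusted p = 0.00146) in M vs. RE and 1.14 ± 0.14 (SE, adjusted p = 0.00169) in E vs. RE. *Ext2* was not called, with 74.5 ± 6, 130 ± 1.12 and 117 ± 4.44 ppm in E, M and RE cells (SD, n = 2 each) and log2 fold changes of 0.80 ± 0.12 (SE, adjusted p = 0.00226) in E vs. M, −0.14 ± 0.12 (SE, adjusted p = 0.412) in M vs. RE and 0.66 ± 0.12 (SE, adjusted p = 0.00828) in E vs. RE.

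*Hs3st1* encodes a sulfotransferase that completes the antithrombin binding site of heparan sulfate. Its coverage was 7.16 and 5.32 ppm in the E libraries, 0.42 and 0.752 ppm in the M libraries and 10.3 and 10.4 ppm in the RE libraries. The M libraries were lowest by far and the RE libraries highest, with no overlap. On the log2 scale the changes were −3.24 ± 0.29 (SE, adjusted p = 0.000209) in E vs. M, 3.97 ± 0.29 (SE, adjusted p = 9.68e-05) in M vs. RE and 0.73 ± 0.29 (SE, adjusted p = 0.0903) in E vs. RE. M cells held 0.0939 of the mean coverage of E cells, and RE cells 17.7 times that of M cells. *Ndst3*, one of the enzymes that replace acetyl by sulfate on heparan chains, was low, at 0.33 and 0.722 ppm in the E libraries, 2.77 and 3.52 ppm in the M libraries and 0.556 and 0.95 ppm in the RE libraries. Both M libraries were above the others, and E and RE overlapped. The changes in log2 units were 2.44 ± 0.40 (SE, adjusted p = 0.00289) in E vs. M, −1.96 ± 0.40 (SE, adjusted p = 0.00932) in M vs. RE and 0.48 ± 0.40 (SE, adjusted p = 0.388) in E vs. RE.

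The 10 heparan sulfate enzymes tested and not called (*Ext2*, *Extl1*, *Extl2*, *Extl3*, *Hs2st1*, *Hs3st3b1*, *Hs6st1*, *Hs6st2*, *Ndst1* and *Ndst2*) had stage means from 0.283 to 167 ppm and log2 fold changes from −1.11 to 1.03, and 2 of them had an adjusted p below 0.01. *Hs3st3a1* and *Ndst4* did not pass the filter and reached 0.105 ppm at most. Both calls of *Hs3st1* and that of *Ext1* in E vs. M held under every alternative. *Ext1* lost its call in M vs. RE when any 1 of the M and RE libraries was left out (adjusted p up to 0.0281), with library totals (−0.83) and with the length and GC trend removed (−0.97). In E vs. RE it lost the call without the first or the second RE library (up to 0.0363), with the length and GC trend removed (0.72, against 1.14) and with only the 2 groups compared. *Ndst3* lost its calls without the first or the second M library, and in M vs. RE also without the first or the second RE library (up to 0.0908), with library totals, with 0.025 ppm added, without a filter and with 500 bases required in every library, which makes 8 of 18 alternatives.

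All 7 chondroitin and dermatan sulfate enzymes in the table were tested. In E vs. M, 3 were called higher (*Chst11*, *Chst3* and *Chsy1*) and 1 lower (*Chst7*), which was 57.1%, against 16.7% of all genes tested. In E vs. RE 2 were called higher (28.6%, against 9.07% of all genes called in either direction). In M vs. RE limma called 0 of the 7, against 12.7% of all genes tested, and 5 of the 7 had an unadjusted p under 0.05. The share of all genes tested at that unadjusted level was not computed. *Chsy1*, a polymerase of the chondroitin chain, had 30.3 and 36.2 ppm in the E libraries, 111 and 108 ppm in the M libraries and 75 and 64.8 ppm in the RE libraries. M was highest and E lowest, without overlap. The fit gave log2 fold changes of 1.72 ± 0.14 (SE, adjusted p = 0.000175) in E vs. M, −0.65 ± 0.14 (SE, adjusted p = 0.0141) in M vs. RE and 1.07 ± 0.14 (SE, adjusted p = 0.00268) in E vs. RE. *Chst11*, a chondroitin sulfotransferase, was among the low genes, at 0.209 and 0.264 ppm in the E libraries, 2.67 and 2.01 ppm in the M libraries and 1.67 and 1.04 ppm in the RE libraries. The order was the same as for *Chsy1*. The log2 fold changes of *Chst11* were 2.85 ± 0.32 (SE, adjusted p = 0.000581) in E vs. M, −0.77 ± 0.32 (SE, adjusted p = 0.11) in M vs. RE and 2.08 ± 0.32 (SE, adjusted p = 0.00419) in E vs. RE.

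*Chst3* and *Chst7* sulfate another position of the chondroitin chain and moved in opposite directions in M cells. For *Chst3* the coverage was 0.599 and 0.857 ppm in the E libraries, 2.28 and 2.54 ppm in the M libraries and 1.23 and 1.16 ppm in the RE libraries. The M libraries were highest. *Chst3* had log2 fold changes of 1.61 ± 0.26 (SE, adjusted p = 0.00285) in E vs. M, −0.95 ± 0.26 (SE, adjusted p = 0.0303) in M vs. RE and 0.67 ± 0.26 (SE, adjusted p = 0.0931) in E vs. RE. For *Chst7* it was 1.94 and 2.29 ppm in the E libraries, 0.64 and 0.76 ppm in the M libraries and 0.635 and 1.03 ppm in the RE libraries. The E libraries were highest, and M and RE overlapped. *Chst7* had log2 fold changes of −1.47 ± 0.30 (SE, adjusted p = 0.00749) in E vs. M, 0.20 ± 0.30 (SE, adjusted p = 0.662) in M vs. RE and −1.27 ± 0.30 (SE, adjusted p = 0.0189) in E vs. RE. *Chpf*, *Chst12* and *Chst14* were not called, with stage means from 22.1 to 140 ppm and log2 fold changes from −0.61 to 0.83.

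The calls of *Chsy1* and *Chst11* in E vs. M held under every alternative that gave them a value, and *Chst11* and *Chst8* did not reach 500 bases in every library. In E vs. RE, *Chst11* and *Chsy1* lost their calls when any 1 of the M and RE libraries was left out (adjusted p up to 0.0556 and 0.0486), and both with only the 2 groups compared. *Chsy1* lost it under 9 of 18 alternatives, which also include the first E library left out (log2 fold change 0.94), library totals (0.99) and the length and GC trend removed (0.94). *Chst11* lost it also with 1 ppm added (0.92, against 2.08) and with array weights. *Chst3* and *Chst7* lost theirs in E vs. M when any 1 of the M and RE libraries was left out (up to 0.033 and 0.063), with 1 ppm added (0.98 and −0.87) and with only the 2 groups compared, and *Chst7* also without a filter and with array weights.

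The remaining Chst genes in the table numbered 4. *Chst2*, a sulfotransferase of N-acetylglucosamine that takes part in ligands of L-selectin, had the highest log2 fold change in E vs. M of the 61 genes on the scale with 0.1 ppm added, while *Chst8* had the higher ratio of means (14.5 against 12). Coverage of *Chst2* was 39.8 and 36.4 ppm in the E libraries, 455 and 461 ppm in the M libraries and 45.2 and 56.8 ppm in the RE libraries. Both M libraries lay far above the other 4, and RE lay above E without overlap. Fitted log2 fold changes were 3.59 ± 0.15 (SE, adjusted p = 1.41e-05) in E vs. M, −3.17 ± 0.15 (SE, adjusted p = 2.07e-05) in M vs. RE and 0.41 ± 0.15 (SE, adjusted p = 0.0698) in E vs. RE. *Chst8*, which sulfates terminal GalNAc, had 0.105 and 0.185 ppm in the E libraries, 2.27 and 1.93 ppm in the M libraries and 0.948 and 0.84 ppm in the RE libraries. M was highest and E lowest, with no overlap. On the log2 scale the changes were 3.18 ± 0.29 (SE, adjusted p = 0.000258) in E vs. M, −1.15 ± 0.29 (SE, adjusted p = 0.024) in M vs. RE and 2.04 ± 0.29 (SE, adjusted p = 0.00351) in E vs. RE. *Chst1* and *Chst4* did not pass the filter and reached 0.73 ppm at most. Both calls of *Chst2* and that of *Chst8* in E vs. M held under every alternative that gave them a value, and *Chst8* lost its call in E vs. RE when any 1 of the M and RE libraries was left out (adjusted p up to 0.0503), with 1 ppm added (0.73, against 2.04) and with only the 2 groups compared.

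Levels can be compared between genes per length only, here as ppm per kb of the longest transcript in a newer annotation than that of the reads. In E cells the highest mean levels were those of *St3gal5* (71.9 ppm per kb) among the sialyltransferases, *B4galt3* (40.3) in extension and branching, *Ext2* (26) among the heparan sulfate enzymes, *Chpf* (25.9) among the chondroitin enzymes and *Galnt11* (24.6) in the initiating group. A share of 36.4% of the 50-base stretches of *B4galt3* also occurs in another annotated gene. In M cells *Galnt1* and *Ext1* led their groups. *Ext1* went from 17.9 ppm per kb in E to 79.7 in M and 39.1 in RE cells, which made up 13.9% to 15.3% of the summed level of its group in the E libraries, 34.7% to 36.5% in the M libraries and 21.5% to 21.7% in the RE libraries. *Galnt1* took 19% to 20.8%, 29.8% to 31% and 17.8% to 17.9% of the initiating group in E, M and RE libraries. *Chst2* stood at 5.19, 62.5 and 6.96 ppm per kb in E, M and RE cells. These levels describe RNA and say nothing of enzyme activity.

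**Figure D3:**
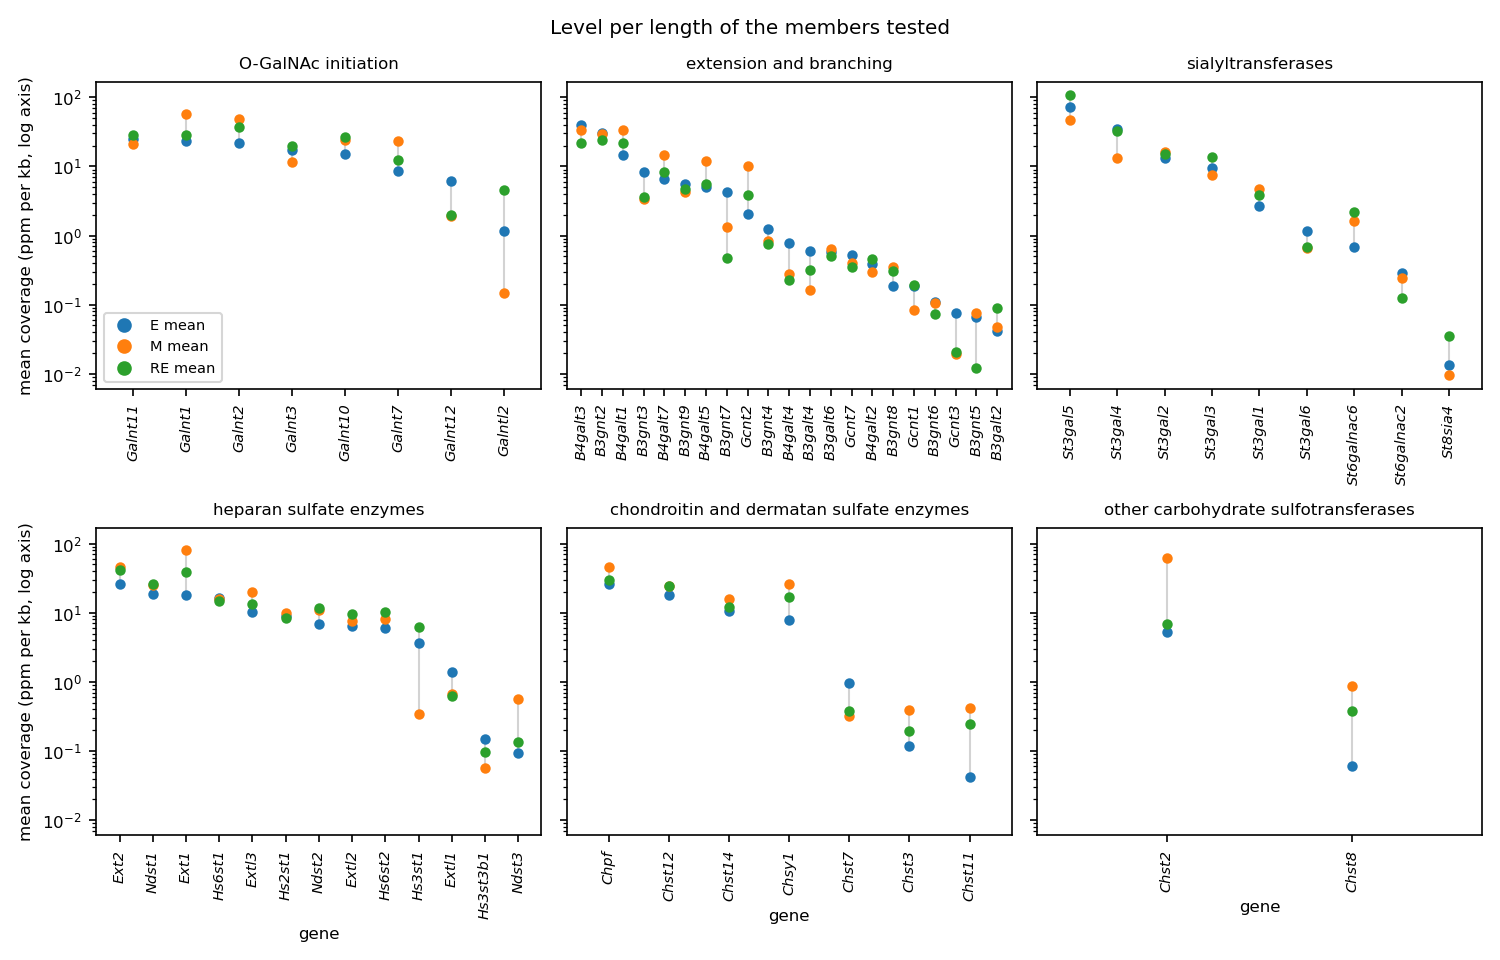
Mean coverage per kb of transcript (log axis) of the genes tested that have a transcript length, in E, M and RE cells, by role, each ordered by the E mean. The points of Chst2 (5.19, 62.5 and 6.96 ppm per kb) and Ext1 (17.9, 79.7 and 39.1 ppm per kb) show M cells on top, and those of St3gal5 (71.9, 46.3 and 106 ppm per kb) RE cells.

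The other genes of these pathways formed a list of 59, of which 53 were in the table and 50 were tested. In E vs. M 15 of the 50 were called (30%), 11 higher and 4 lower, in M vs. RE 6 (12%), 2 higher and 4 lower, with E vs. RE at 12 (24%), of which 10 were higher and 2 lower. Over all genes tested the shares were 16.7%, 12.7% and 9.07% in these comparisons. In all, 18 were called in at least 1 comparison. *St6gal2*, *Gal3st2*, *Xylt1*, *B3gat1*, *Chsy3* and *Chpf2* were not analysed here. Of those that complete O-glycan cores and termini, 10 were tested. *C1galt1*, which adds the galactose of the common O-glycan core, had 51.5 and 49.4 ppm in E, 109 and 117 ppm in M and 123 and 105 ppm in RE cells, and was called higher in E vs. M (log2 fold change 1.16 ± 0.13 SE, adjusted p = 0.000644) and in E vs. RE (1.17 ± 0.13 SE, adjusted p = 0.00148). *St6gal1*, a sialyltransferase of N-glycans, had 0.627 and 1.23 ppm in E, 9.12 and 9.09 ppm in M and 4.78 and 3.59 ppm in RE cells and rose in the same comparisons (3.23 ± 0.31 SE, adjusted p = 0.000313, and 2.11 ± 0.31 SE, adjusted p = 0.00378). The E libraries were lowest for both genes. *B4galnt3* and *B4galnt4*, which make chains ending in GalNAc, fell in M cells (−2.00 ± 0.23 SE, adjusted p = 0.000607, and −1.48 ± 0.13 SE, adjusted p = 0.000227) and were also lower in RE than in E cells (−2.44 ± 0.23 SE, adjusted p = 0.000804, and −1.17 ± 0.13 SE, adjusted p = 0.0015). *Gal3st4*, a galactose sulfotransferase, fell in M cells (−1.28 ± 0.24 SE, adjusted p = 0.00498), and *B3galnt2*, which acts on dystroglycan, fell in M vs. RE (−1.21 ± 0.17 SE, adjusted p = 0.00174).

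*Cmah*, the hydroxylase that turns one form of sialic acid into another, had 0.291 and 0.185 ppm in the E libraries, 13.8 and 13.8 ppm in the M libraries and 0.169 and 0.524 ppm in the RE libraries. The M libraries were high, and E and RE overlapped near the bottom of the scale. The changes in log2 units were 5.38 ± 0.41 (SE, adjusted p = 0.000113) in E vs. M, −5.08 ± 0.41 (SE, adjusted p = 0.000158) in M vs. RE and 0.30 ± 0.41 (SE, adjusted p = 0.614) in E vs. RE. The sialidase gene *Neu2* moved the other way, with 1.65 and 1.48 ppm in E, 0.313 and 0.194 ppm in M and 1.24 and 1.14 ppm in RE cells and log2 fold changes of −2.25 ± 0.29 (SE, adjusted p = 0.00102) in E vs. M and 1.89 ± 0.29 (SE, adjusted p = 0.00277) in M vs. RE. *Neu3*, the sialidase of gangliosides, had 1.1 and 1.35 ppm in E, 2.7 and 2.6 ppm in M and 3.19 and 3.03 ppm in RE cells and was called higher in E vs. M (1.06 ± 0.22 SE, adjusted p = 0.00767) and E vs. RE (1.28 ± 0.22 SE, adjusted p = 0.00602). These 3 genes were those called among 8 tested for supply and removal of sialic acid.

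Of the 10 genes tested for the glycosaminoglycan linker and chains, 3 were called in E vs. M (30%, against 16.7% of all genes tested), all higher in M cells. *Csgalnact1*, which starts the chondroitin chain on the linker, had 1.36 and 1.26 ppm in the E libraries, 21.8 and 22.2 ppm in the M libraries and 8.44 and 8.45 ppm in the RE libraries. M was highest and E lowest without overlap, and the log2 fold change was 3.97 ± 0.17 (SE, adjusted p = 1.41e-05) in E vs. M, −1.37 ± 0.17 (SE, adjusted p = 0.00101) in M vs. RE and 2.60 ± 0.17 (SE, adjusted p = 0.00029) in E vs. RE. *Dse*, the epimerase that makes dermatan sulfate, had 136 and 136 ppm in E, 300 and 290 ppm in M and 373 and 335 ppm in RE cells and rose in E vs. M (1.12 ± 0.12 SE, adjusted p = 0.000523) and E vs. RE (1.38 ± 0.12 SE, adjusted p = 0.000707). *Ust*, a uronyl sulfotransferase, was called in E vs. M (1.40 ± 0.21 SE, adjusted p = 0.00205) and *Csgalnact2*, with the same activity as *Csgalnact1*, in E vs. RE (1.02 ± 0.14 SE, adjusted p = 0.0032).

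For the supply of precursors and sulfate, *Ugdh* and *Slc26a2* were called of 10 tested. *Ugdh*, which makes the glucuronic acid donor, had 185 and 163 ppm in E, 354 and 360 ppm in M and 167 and 178 ppm in RE cells, with M highest and E and RE overlapping, and log2 fold changes of 1.04 ± 0.13 (SE, adjusted p = 0.000861) in E vs. M and −1.05 ± 0.13 (SE, adjusted p = 0.00102) in M vs. RE. *Slc26a2*, a sulfate transporter, had 10.8 and 13.5 ppm in E, 39.8 and 38.6 ppm in M and 83.1 and 71 ppm in RE cells, with RE highest, and was called in E vs. M (1.69 ± 0.16 SE, adjusted p = 0.00027) and E vs. RE (2.66 ± 0.16 SE, adjusted p = 0.00029). Of 12 genes for removal and remodelling, 3 were called. *Sulf2*, which removes sulfate from heparan chains outside the cell, had 43.4 and 48.9 ppm in E, 27.8 and 31.2 ppm in M and 123 and 121 ppm in RE cells. RE cells were highest and M cells lowest, with log2 fold changes of 2.05 ± 0.13 (SE, adjusted p = 6.33e-05) in M vs. RE and 1.41 ± 0.13 (SE, adjusted p = 0.00084) in E vs. RE. The lysosomal sulfatase genes *Arsb* and *Ids* were higher in M (1.43 ± 0.20 SE, adjusted p = 0.00148, and 1.22 ± 0.22 SE, adjusted p = 0.00462) and in RE than in E cells (1.17 ± 0.20 SE, adjusted p = 0.00604, and 1.52 ± 0.22 SE, adjusted p = 0.00352). Leaving out the first or the second M library lowered the number called, and it also lowered the calls over all genes tested in each comparison.

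**Figure D4:**
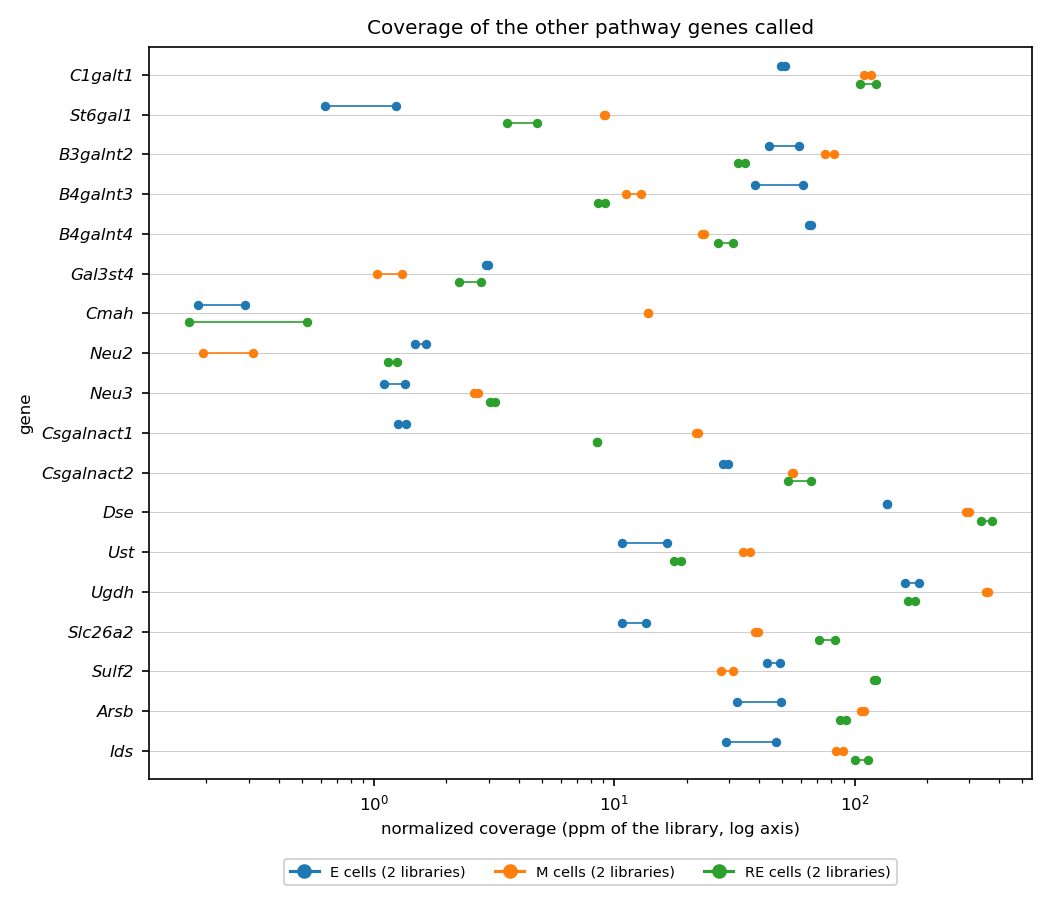
Normalized coverage in ppm (log axis) of the 18 other pathway genes called in at least 1 comparison, with 1 point per library and a line joining the 2 libraries of a stage. The M libraries of Cmah and Csgalnact1 lie to the right in their rows, as do the RE libraries of Slc26a2 and Sulf2.

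The libraries hold between 35782513 and 47928557 reads' worth of 50 bases, and 3 reads' worth come to between 0.0635 and 0.0791 ppm. The 16 genes that were not tested reached 0.73 ppm at most, and 4 of them stayed at or below this floor in all stages. Markers of mammary epithelial cells summed to between 1770 and 2191 ppm in E, 1971 and 2093 ppm in M and 1181 and 1237 ppm in RE libraries (9 of 10 listed genes in the table, with *Krt5* and *Krt19* near 0). Within this sum the genes moved apart, since the M libraries were lower than the E libraries for *Cldn3* (53.9 and 44.8 against 144 and 113 ppm), *Cldn4* (94.2 and 89.2 against 214 and 179 ppm) and *Cldn7* (33.7 and 32.6 against 132 and 118 ppm), and higher for *Krt14* (657 and 754 against 316 and 226 ppm) and *Krt8* (310 and 322 against 224 and 183 ppm). *Krt18* had 882 and 619 ppm in E, 581 and 549 ppm in M and 270 and 312 ppm in RE libraries. Fibroblast markers, several of which TGFβ1 also raises in epithelial cells, summed to between 117 and 148, 881 and 1030, and 971 and 1180 ppm (6 of 7 in the table). From M to RE libraries *Col1a1* fell (548 and 438 to 271 and 202 ppm), while *Pdgfrb* rose (451 and 408 to 810 and 689 ppm). *Pdgfra*, *Col3a1* and *Dcn* were also higher in RE than in M libraries, with *Dcn* at the floor in M cells. *Thy1* stayed at the floor in all stages. Leukocyte markers summed to 9.57 ppm at most (4 of 5 in the table). Endothelial markers (4 of 4) summed to between 0.374 and 0.561 ppm in E, 2.67 and 2.73 ppm in M and 0.493 and 0.496 ppm in RE libraries. Of these, *Cdh5* had 0 and 0 ppm in E, 2.3 and 2.07 ppm in M and 0.0423 and 0.0911 ppm in RE libraries. Adipocyte markers (2 of 3) lay between 3.14 and 9.06 ppm in E, 0.0553 and 0.0727 ppm in M and 1.87 and 2.22 ppm in RE libraries. The part of these marker changes in the results above was not tested.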

How the data were processed

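RNA of E, M and RE cells was sequenced by the authors, with 2 biological replicates per stage. Bowtie and TopHat2 served to map the unique reads. The authors deposited the coverage (signal) as whole numbers per gene symbol, without normalization, in a single table. The values behave as sequenced bases per gene, since 44.8% to 48.4% of the low values in each library are multiples of 50. The counting step and its annotation are not given in the sources used here. The edgeR test of the study needs read counts and was not run.

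Coverage was scaled to ppm with unweighted TMM factors (trims of 30% for log ratios and 5% for mean levels, against the mean of all libraries, factors 0.883 to 1.11). Genes reaching 500 bases in 2 or more libraries (13893) went into limma 3.58.1 (R 4.3.3) on log2(ppm + 0.1), which understates changes of low genes. All 6 libraries entered 1 fit with group only and a trend, and p was adjusted by Benjamini-Hochberg over all genes tested. The fit gives each gene 1 spread for all stages. Over all genes the SD of the log2 difference between replicates was 0.558 in E, 0.317 in M and 0.309 in RE cells. A shared spread may therefore be too small for E cells and too large for the other stages. The p-values may then be too low where E cells are compared and too high in M vs. RE. A mean ± SD is over 2 libraries. The p-values measure only the spread between these libraries, and depth covers counting error only.

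Every gene called in a comparison is named, and the others are counted by role. The members and lists were chosen with earlier results of these data known. Transcript lengths came from a newer annotation for 93.4% of genes tested, and promoters from RefSeq. The fit was run on simulated data with equal noise in all libraries, which does not cover the wider spread between the E libraries. Alternatives were other pseudocounts (0.025 and 1 ppm), normalizations, filters, thresholds, fits of 2 groups only, array weights, a replicate block, removal of length and GC trends, and each library left out. TMM against the second E library was added after seeing the data.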

Additional observations from a re-analysis of the deposited data

How the results depend on the processing

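With each library left out in turn, where a stage left with 1 library is assumed to vary like the others, the calls ranged from 11 to 24 in E vs. M (23 with all libraries), from 3 to 12 in M vs. RE (10) and from 0 to 12 in E vs. RE (10), and for the other pathway genes from 9 to 21 (18). The limma count of 0 was found without the first RE library, where 26 of 60 genes had an unadjusted p under 0.05 and only 9 of all genes tested were called. The share of all genes with an unadjusted p under 0.05 was not computed, so the 26 of 60 has no background to stand against. Of the other alternatives, a fold threshold of 1.5 gave 16 calls in M vs. RE. The share of all genes at that fold threshold was not computed, so this count has no background. The fit of only the 2 groups compared gave 2 in E vs. RE, while the remaining counts stayed within 1.5 times the value reported. Over all genes tested, this 2-group fit moved the comparisons in different directions. Calls between E and M cells fell from 2316 to 1694, whereas those between M and RE cells rose from 1764 to 2316. Calls over all genes tested fell from 1260 to 458 in E vs. RE with only the 2 groups compared, and without the first M library from 2316 to 904 (E vs. M), from 1764 to 689 (M vs. RE) and from 1260 to 594 (E vs. RE). Without the second E library they rose to 3323, 2307 and 2302. The cause was not tested.

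Reversals touched only fold changes that had not been called. With 1 library left out, the log2 fold change in M vs. RE ranged from −0.022 to 0.183 for *B3gnt3* and from −0.107 to 0.52 for *Chst7*, turning without the second RE library in both. For *Galnt12* it ranged from −0.149 to 0.269 (turning without the second RE library, and to −0.112 without the second M library), for *C1galt1* from −0.092 to 0.142 (turning without the first RE library, and to −0.055 without the first M library) and for *Csgalnact2* from −0.04 to 0.267, turning without the first RE library. In E vs. RE the range was −0.298 to 0.916 for *Cmah*, turning without the second RE library, and −0.11 to 0.074 for *Ugdh*, turning without the first E library and, to 0.056, without the first RE library. With the length and GC trend removed, with and without the block, *C1galt1* turned to −0.041 in M vs. RE, while *St3gal4* turned to 0.035, *Cmah* to −0.174 and *Ugdh* to 0.054 in E vs. RE. TMM against the second E library turned *C1galt1* to −0.008 in M vs. RE. Finally, median-of-ratios size factors turned *Ugdh* to 0.008 in E vs. RE. The cause was not tested.

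Same-numbered libraries shared deviations weakly (correlations of 0.27, 0.058 and 0.12 between E and M, E and RE, and M and RE), and there are only 2 pairs, so the numbers were not taken to pair the libraries. A replicate block gave 23, 10 and 10 calls in the 3 comparisons, with 14 higher and 9 lower in E vs. M, and the call of *St6galnac6* in E vs. M was lost under it.

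Depth limits the low genes: 3 reads' worth come to between 0.0635 and 0.0791 ppm, against 0.105 ppm for *Chst8* in its lower E library. The replicates differed most in E cells, where the SD of the log2 difference between the libraries was 0.563 over these genes, against 0.397 in M and 0.426 in RE cells.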
